A study of Mus musculus with 20 samples.

Results

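Gm5662, Gm8300, Gm2016, Gm2022 and Gm4027 are predicted protein-coding genes of a multi-copy cluster on mouse chromosome 12, and they were read by gene symbol in every RNA library of a study of Pcgf5 in mouse preimplantation embryos. A list of 6 symbols defined the set, and 5 of them had a row among the 24411 genes of the tables. The sixth, Gm2035, is a pseudogene in RefSeq and was not analysed here. Each of the 16 libraries was made from messenger RNA of a pool of 10 embryos obtained by in vitro fertilisation, and the strain is not given in the sources used here.

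In the knockdown, zygotes received small interfering RNA against Pcgf5 (siPcgf5) or a non-targeting one (siControl) by electroporation. These embryos were collected as late 2-cell embryos at 36 hours after insemination and as morulae at 72 hours, with 2 siPcgf5 and 2 siControl libraries at each stage. In the knockout, 4-cell embryos at 48 hours were homozygous (Homo KO, 3 libraries) or heterozygous (Hetero KO, 3 libraries) for a deletion named after an MT2C_Mm repeat at Pcgf5, or were wild type (WT, 2 libraries). MT2C_Mm belongs to the long terminal repeats of MERVL-related elements, and the labels do not say where the deletion lies or how these embryos were made. The labels give siRNA treatment for the knockdown embryos and none for the 4-cell embryos. Nothing states that replicates came from separate matings or cultures, so p-values measure only the spread between these pools.

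The mouse embryo switches on its own genome in earnest at the late 2-cell stage. Among the transcripts that appear then and are largely gone within a few divisions are those of MERVL elements and of many clustered multi-copy genes, such as the Zscan4 genes. PCGF5 is a subunit of a variant Polycomb repressive complex 1, which attaches ubiquitin to histone H2A. The function of the 5 predicted genes is not annotated in the tables used here, so they are described by position and level.

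All 5 genes lie within 760182 bases of chromosome 12 (87514316 to 88274497 of GRCm38.p6, the assembly that mm10 names). Gm8300 spans 87514316 to 87518265, Gm4027 spans 87617797 to 87622288, and Gm2016 spans 87874072 to 87877859. Gm2022 follows at 87892834 to 87896722 and Gm5662 at 88270635 to 88274497. The single-copy genes Snw1, a splicing cofactor, and Adck1, a mitochondrial kinase-like protein, flank the cluster. Between and including them RefSeq lists 75 genes, of which 53 are pseudogenes, and 16 of the 75 were in the tables.

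Reads may have been shared among copies in the authors' counting, although the values do not show which genes shared them. The expected count, RSEM's estimate of reads per gene, was not a whole number for Gm2016, Gm2022 and Gm4027 in all 16 libraries, and for Gm5662 and Gm8300 in 15 of 16. Over all genes, between 5.39% and 8.28% of values per library were not whole. A fractional count arises when a read is divided among genes it matches, so the values of single copies are uncertain and their sum is given as well. Of the neighbours, BB287469, Gm2042, Gm1995 and Gm7104 had fractional counts in 16 libraries, Gm21319 in 15, Gm5039 in 14 and Oog1 in 12. Gm16381, Snw1, Adck1 and 3200001D21Rik had them in 0. Reads may thus be divided between the 5 genes and their neighbours, and the sum is uncertain too.

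Only Gm4027 of the 5 has a promoter window in the RefSeq table of GRCm38.p6, covering 250 bases before to 50 after an annotated start. It is printed here with those of its neighbours BB287469 and Gm21319, predicted genes of the same cluster, because the first of them proved to have the expression pattern most like the 5 genes and because the windows show how alike copies of this cluster can be. Capitals mark 2 motifs searched on both strands: TATATA, the core of many TATA boxes, and GGATTA, a core recognised by OTX-type and related homeodomain proteins. Both motifs were chosen after the sequences had been seen.
Gm4027 chr12:87618659-87618958, plus strand: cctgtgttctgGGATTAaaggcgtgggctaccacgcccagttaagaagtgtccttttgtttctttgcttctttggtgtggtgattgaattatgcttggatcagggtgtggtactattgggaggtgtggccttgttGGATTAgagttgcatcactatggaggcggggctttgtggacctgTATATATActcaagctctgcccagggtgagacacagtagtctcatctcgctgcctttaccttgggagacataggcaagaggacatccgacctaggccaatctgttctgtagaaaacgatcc
BB287469 chr12:87816327-87816626, plus strand: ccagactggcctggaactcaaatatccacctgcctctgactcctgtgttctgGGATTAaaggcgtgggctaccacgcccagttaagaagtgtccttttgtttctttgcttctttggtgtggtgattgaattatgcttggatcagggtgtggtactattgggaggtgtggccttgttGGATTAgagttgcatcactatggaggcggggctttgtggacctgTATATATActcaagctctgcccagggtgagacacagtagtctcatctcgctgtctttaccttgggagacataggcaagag
Gm21319 chr12:87775706-87776005, minus strand: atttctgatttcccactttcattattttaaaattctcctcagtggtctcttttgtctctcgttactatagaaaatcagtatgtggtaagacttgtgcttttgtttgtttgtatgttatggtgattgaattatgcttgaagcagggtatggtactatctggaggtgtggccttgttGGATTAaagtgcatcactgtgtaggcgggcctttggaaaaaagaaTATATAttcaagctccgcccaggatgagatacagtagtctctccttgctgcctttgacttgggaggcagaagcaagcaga
In a pairwise alignment with no penalty for unaligned ends, the BB287469 window was identical to that of Gm4027 at 258 of 259 aligned bases (99.6%), with an exact run of 231 bases. The Gm21319 window matched at 198 of 244 aligned bases (81.1%). The Gm4027 and BB287469 windows each held 2 matches of TATATA, which overlap, and 2 of GGATTA, and the Gm21319 window held 1 of each. Of all 32851 RefSeq promoter windows of this length, 5.67% held TATATA, 7.06% held GGATTA and 0.505% held both. In BB287469 the TATATA matches start 30 and 28 bases before the annotated start, and in Gm4027 they start 71 and 69 bases before it. The Gm4027 window lies inside the span of that gene (87617797 to 87622288), whereas the BB287469 window begins before its gene (87816577 to 87820676). The starts are thus not placed alike.

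Library depth was 14310634 to 55620137 summed expected counts, with the 4-cell libraries at the shallow end. Pcgf5, the targeted gene, was lower in both siPcgf5 late 2-cell libraries (53.9 and 89.4 CPM, counts relative to TMM-scaled library totals) than in both siControl libraries (316 and 811 CPM). It was also lower in siPcgf5 morulae (39.5 and 32.4 CPM) than in siControl morulae (246 and 166 CPM), and lower in Homo KO embryos (191, 211 and 162 CPM) than in Hetero KO (336, 252 and 284 CPM) or WT embryos (328 and 294 CPM). None of these Pcgf5 differences passed in edgeR's quasi-likelihood test after Benjamini-Hochberg adjustment over all genes, with adjusted p between 0.0789 and 0.424. The stage labels went with their markers: 5 markers of the 2-cell embryo (Zscan4c, Zscan4d, Zscan4f, Tcstv3 and Zfp352) summed to 1632 to 3240 CPM in the late 2-cell libraries, 18.3 to 405 CPM in the 4-cell libraries and 4.33 to 37.3 CPM in the morula libraries.

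Gm5662 was the most abundant of the 5 in every library and Gm2022 the least, on the length-corrected TPM scale. Of the summed TPM of the 5 genes, Gm5662 took between 30.2% and 76.6% per library. Gm2022 took between 0.313% and 8.12%. At their highest, in siControl late 2-cell replicate 2, the 5 genes together made up 0.663% of all TPM, and at their lowest, in siPcgf5 morula replicate 2, 0.00064%.

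**Figure D1:**
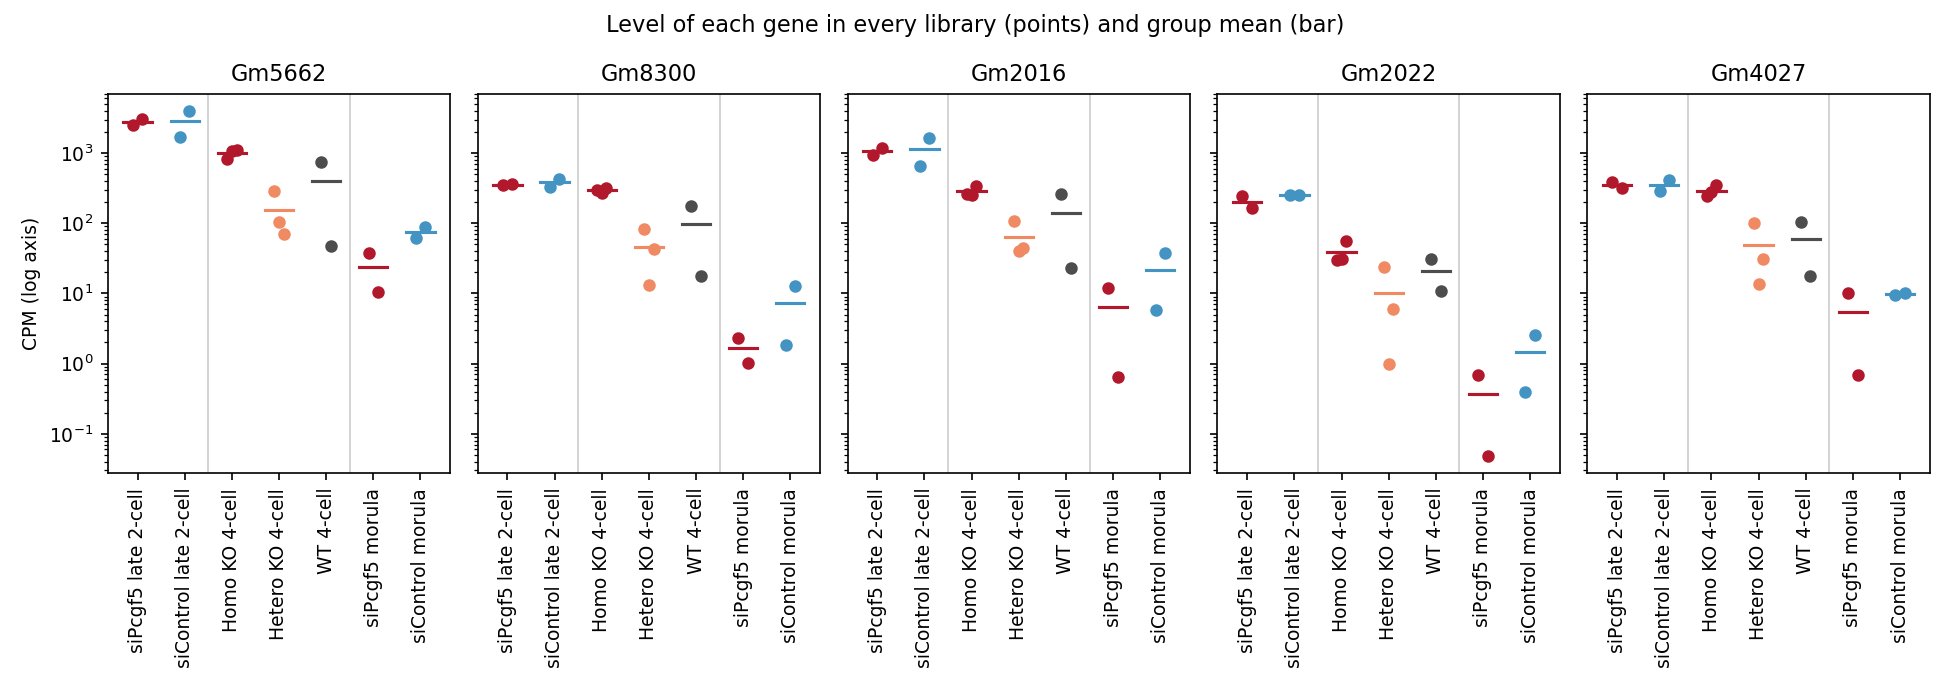
CPM (log axis) of each gene in every library, 1 point per library and a bar at the group mean, with groups in order of stage from left to right. By group mean, in each of the 5 panels both late 2-cell groups are the highest, Homo KO lies above Hetero KO, and both morula groups are the lowest.

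The 7 groups stood in the same order of mean CPM for each of the 5 genes. From high to low this order was siControl late 2-cell, siPcgf5 late 2-cell, Homo KO 4-cell, WT 4-cell, Hetero KO 4-cell, siControl morula and siPcgf5 morula. Several neighbours in this order were not separated. The late 2-cell groups overlapped for every gene but Gm2022, and WT and Hetero KO overlapped for all 5. The morula groups overlapped for every gene but Gm5662. The siPcgf5 late 2-cell and Homo KO groups overlapped for Gm4027 (314 to 387 and 243 to 345 CPM). Homo KO and WT overlapped for Gm2016 and Gm2022, and Hetero KO and siControl morulae for Gm5662 and Gm2022.

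In control embryos all 5 genes were far lower at the morula than at the late 2-cell stage. Gm5662 stood at 61.6 and 89.1 CPM in siControl morulae, against 1696 and 4002 CPM in siControl late 2-cell embryos. Gm2016 stood at 5.90 and 37.7 CPM, against 657 and 1637 CPM, and Gm2022 at 0.396 and 2.57 CPM, against 252 and 252 CPM. Every siControl morula library lay far below both siControl late 2-cell libraries for each of the 5 genes, a separation that 42.6% of all genes showed in this direction.

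The log2 fold change, siControl morula over siControl late 2-cell, was -5.24 (SE 0.670) for Gm5662, -5.68 (SE 0.857) for Gm8300, -5.71 (SE 1.55) for Gm2016, -7.39 (SE 0.986) for Gm2022 and -5.17 (SE 1.03) for Gm4027. All 5 passed with edgeR and Benjamini-Hochberg adjustment, at adjusted p between 0.000175 and 0.0224. Among all 16980 genes tested, 28.1% were called lower in this comparison, and the median log2 fold change was -0.34. In each of the 4 fits that left out 1 siControl library, Gm2016 and Gm4027 no longer passed and 3 of the 5 genes remained below the threshold. In pools of embryos, fewer cells with a transcript and less of it per cell cannot be told apart.

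The same stage comparison in knockdown embryos called all 5 genes lower as well, against 28.2% of all genes, and none overlapped, as 44.1% of all genes did not. Gm5662 stood at 38.0 and 10.3 CPM in siPcgf5 morulae, against 2548 and 3066 CPM in siPcgf5 late 2-cell embryos. The log2 fold changes ranged from -9.27 (SE 1.12) for Gm2022 to -6.07 (SE 1.08) for Gm4027, with edgeR adjusted p between 5.41e-05 and 0.0112. Gm2022 in siPcgf5 morula replicate 2 rested on an expected count of 2.11, so its fold change depends on very few reads.

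The 4-cell stage lay between. Gm5662 stood at 741 and 46.8 CPM in WT 4-cell embryos, against 1696 and 4002 CPM in siControl late 2-cell embryos. All 5 genes were lower in both WT 4-cell libraries than in both siControl late 2-cell libraries, a separation that 38.9% of all 16669 genes showed in this direction. None passed with edgeR, where 15.2% of all genes were called lower. The log2 fold changes were -1.97 to -3.57, with edgeR adjusted p between 0.0603 and 0.198. An unadjusted p under 0.05 was found for 2 of the 5 genes and for 7347 of all 16669 genes, a similar share. The DESeq2 Wald test called 4 of the 5 lower, and 3617 of all 15666 genes. With limma all 5 were called lower, and 5229 of all 16669 genes. Without WT replicate 1 the log2 fold change of Gm5662 was -5.97, and without WT replicate 2 it was -1.96. These groups differ also in siRNA treatment and experiment, which cannot be told apart from stage.

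Between siControl morulae and WT 4-cell embryos, 1 gene passed. Here too stage cannot be told apart from siRNA treatment and experiment. Gm8300 stood at 1.85 and 12.9 CPM in siControl morulae, against 177 and 17.7 CPM in WT 4-cell embryos. Its log2 fold change was -3.71 (SE 1.20, edgeR adjusted p = 0.0412). Called lower among all genes were 15.3%. Gm8300, Gm2022 and Gm4027 did not overlap between these groups (30.2% of all genes did not in this direction), whereas Gm5662 and Gm2016 did overlap. Without WT replicate 1 no gene passed, and Gm5662 had a log2 fold change of 0.73 in place of -2.39.

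At the late 2-cell stage, when these genes were at their highest, siPcgf5 and siControl embryos overlapped for 4 of the 5. Gm5662 stood at 2548 and 3066 CPM in siPcgf5 embryos, against 1696 and 4002 CPM in siControl embryos. Gm8300 stood at 353 and 359 CPM, against 332 and 430 CPM. Gm4027 stood at 387 and 314 CPM, against 292 and 418 CPM. The siPcgf5 values of these 3 genes, and of Gm2016 (932 and 1197 CPM, against 657 and 1637 CPM), lay inside the range of the controls.

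The log2 fold changes at the late 2-cell stage were -0.01 (SE 0.559) for Gm5662, -0.08 (SE 0.697) for Gm8300, -0.09 (SE 1.26) for Gm2016, -0.29 (SE 0.730) for Gm2022 and -0.01 (SE 0.859) for Gm4027. None passed with edgeR, DESeq2 or limma, and none had an unadjusted p under 0.05. Of all 16980 genes, edgeR called 0.00589% lower and 0.00589% higher. DESeq2 called 27 higher and 45 lower of 15663 genes, and limma called 10 higher and 8 lower of 16980. Only Gm2022 did not overlap between the groups (244 and 163 CPM in siPcgf5 embryos, 252 and 252 CPM in both controls), and 16.3% of all genes likewise did not overlap in this direction. The standard errors are wide, so moderate changes either way could not have been seen. With siControl replicate 2 left out, the log2 fold change of Gm5662 was 0.73.

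The 2-cell markers gave other values in these libraries. They summed to 2457 and 3240 CPM in siPcgf5 late 2-cell embryos, against 1632 and 2012 CPM in siControl embryos. Of 26 other 2-cell genes tested (Zscan4, Usp17l, Tdpoz and similar genes, a list that includes these 5 markers and BB287469), 22 had a positive log2 fold change with a median of 0.45, and none passed. The median over all genes was -0.01.

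At the morula stage all 5 genes had lower means in siPcgf5 than in siControl embryos, and none passed. Gm5662 stood at 38.0 and 10.3 CPM in siPcgf5 morulae, against 61.6 and 89.1 CPM in siControl morulae. Gm8300 stood at 2.32 and 1.03 CPM, against 1.85 and 12.9 CPM, and Gm4027 at 10.1 and 0.697 CPM, against 9.41 and 10.3 CPM. The groups did not overlap for Gm5662, which 17% of all genes matched in this direction, and overlapped for the other 4 genes. In all 5 genes siPcgf5 replicate 2 was the lowest of the 4 morula libraries.

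The log2 fold changes at the morula stage were -1.66 (SE 0.579) for Gm5662, -2.18 (SE 0.791) for Gm8300, -1.83 (SE 1.34) for Gm2016, -2.17 (SE 1.04) for Gm2022 and -0.91 (SE 0.905) for Gm4027. The edgeR adjusted p was 1.00 for each, the unadjusted p was under 0.05 for 2 of them (Gm5662 and Gm8300), and 0% of all genes were called in either direction, while 716 genes had an unadjusted p under 0.05. Without siPcgf5 replicate 1, Gm4027 passed at a log2 fold change of -3.84 (adjusted p = 0.0215), and without siPcgf5 replicate 2 its log2 fold change was 0.01. Without siControl replicate 2 the log2 fold change was -0.18 for Gm8300, -0.24 for Gm2022 and 0.06 for Gm2016.

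The 2-cell markers summed to 18.3 and 4.33 CPM in siPcgf5 morulae, against 37.3 and 22.5 CPM in siControl morulae. These sums did not overlap, but they rested largely on Zfp352. It averaged 4.43 ± 6.19 CPM in siPcgf5 and 21.5 ± 15.6 CPM in siControl morulae (SD, n = 2 each). Of the 5 markers, 2 had a positive log2 fold change, with a median of -0.10. Of the 26 other 2-cell genes tested, 12 had a positive log2 fold change with a median of -0.06, and none passed. The part of the markers in the values of the 5 genes was not tested.

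The difference between the knockdown effects, morula minus late 2-cell, was negative for all 5 genes, between -2.10 for Gm8300 and -0.90 for Gm4027. It passed for none with edgeR (0% of all genes were called, adjusted p between 0.982 and 1.00), and for none was the unadjusted p under 0.05. The sets of libraries at the late 2-cell stage and the morula enter this difference and the stage comparisons alike, so these results are not separate observations.

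**Figure D2:**
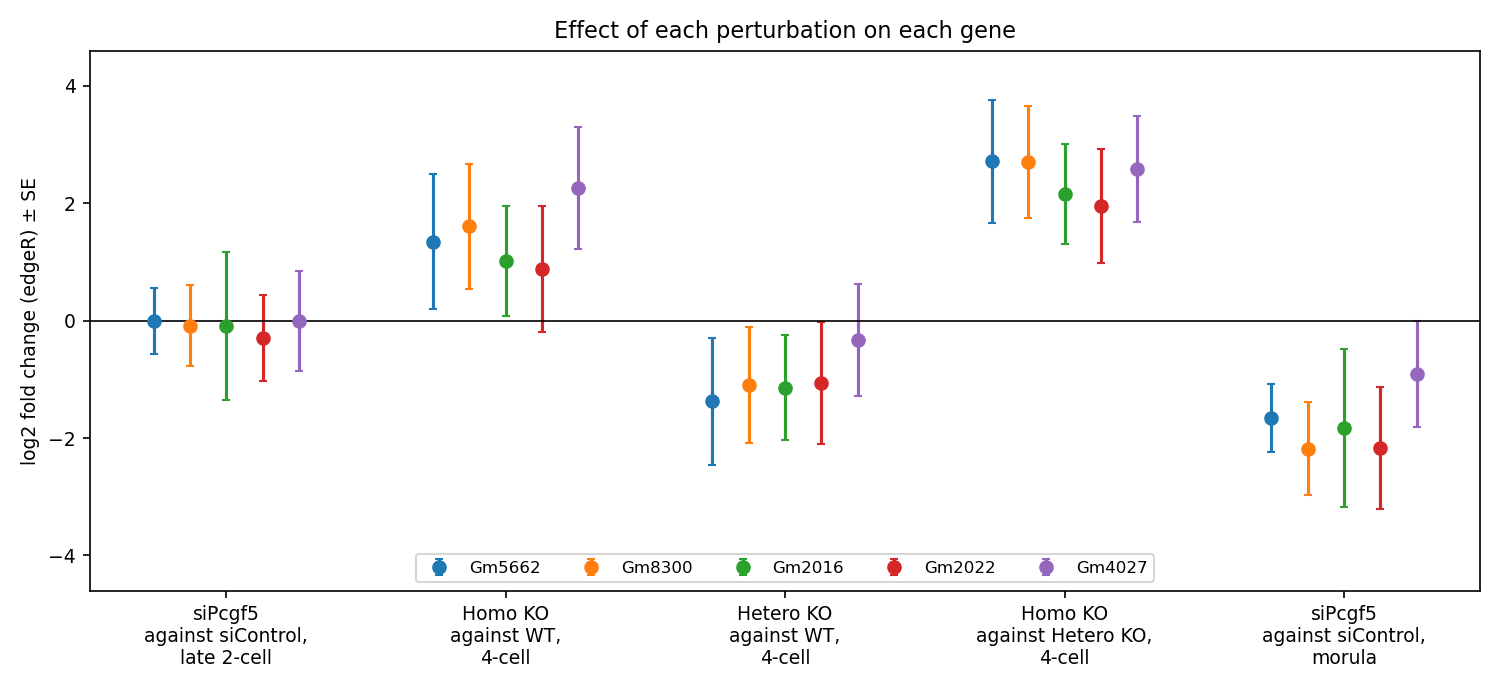
Log2 fold change of each gene with its standard error (edgeR) for the 5 perturbation comparisons, ordered by stage. Values lie between -0.29 and -0.01 for siPcgf5 against siControl in late 2-cell embryos, between 1.95 and 2.72 for Homo KO against Hetero KO, and below 0 for siPcgf5 against siControl in morulae.

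Homo KO and Hetero KO embryos were separated for every one of the 5 genes. All 5 genes were higher in all 3 Homo KO libraries than in all 3 Hetero KO libraries at the 4-cell stage. Gm5662 stood at 829, 1075 and 1087 CPM in Homo KO embryos, against 286, 103 and 69.2 CPM in Hetero KO embryos. Gm8300 stood at 294, 272 and 320 CPM, against 81.4, 13.2 and 42.3 CPM. The Homo KO pools resembled each other, with a spread of at most 1.88-fold within a gene, whereas the Hetero KO pools spread over 2.61-fold to 24.0-fold.

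Gm2016 stood at 261, 250 and 340 CPM in Homo KO embryos, against 107, 40.8 and 43.8 CPM in Hetero KO embryos. Gm4027 stood at 243, 275 and 345 CPM, against 99.6, 13.4 and 31.4 CPM. Gm2022 stood at 29.7, 31.4 and 55.9 CPM, against 23.4, 0.977 and 6.09 CPM. Hetero KO replicate 1 was the highest of its group for every gene and still below each Homo KO library.

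The means were 6.54 times as high in Homo KO as in Hetero KO embryos for Gm5662, 6.46 times for Gm8300, 5.98 times for Gm4027, 4.44 times for Gm2016 and 3.83 times for Gm2022. The log2 fold changes were 2.72 (SE 1.05), 2.70 (SE 0.955), 2.59 (SE 0.901), 2.16 (SE 0.850) and 1.95 (SE 0.972) in the same order. Of all 13766 genes tested, 8.11% were higher without overlap in this comparison. After adjustment over all genes with edgeR none of the 5 passed (adjusted p between 0.542 and 0.668), 4 of 5 had an unadjusted p under 0.05, and 0% of all genes were called, while 1131 genes had an unadjusted p under 0.05. DESeq2 and limma called none of the 5 either. Of all genes, DESeq2 called 89 higher and 22 lower of 12673, and limma called 0 of 13766. Without Hetero KO replicate 1, the log2 fold change of Gm2022 was 3.47 in place of 1.95.

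Against WT the separation was smaller, and the WT libraries disagreed. Gm5662 stood at 741 CPM in WT replicate 1 and at 46.8 CPM in WT replicate 2, a 15.8-fold gap, and the summed CPM of the 5 genes differed 11.3-fold between them (1310 and 116 CPM). Gm5662, Gm8300 and Gm4027 were higher in all 3 Homo KO libraries than in both WT libraries, a separation that 15.1% of all genes showed in this direction. Gm2016 and Gm2022 overlapped.

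The log2 fold changes of Homo KO over WT were 1.34 (SE 1.15) for Gm5662, 1.61 (SE 1.06) for Gm8300, 1.02 (SE 0.939) for Gm2016, 0.89 (SE 1.07) for Gm2022 and 2.26 (SE 1.04) for Gm4027. None passed with edgeR (adjusted p between 0.441 and 0.778), DESeq2 or limma, and none had an unadjusted p under 0.05. Of all genes, 0% were called by edgeR in this comparison. DESeq2 called 237 higher and 96 lower of 12141 genes, and limma called 0 of 13766. Without WT replicate 1 the values ran from 1.81 for Gm2022 to 4.39 for Gm5662, and without WT replicate 2 from 0.12 for Gm2016 to 1.47 for Gm4027. Hetero KO over WT gave -1.37 (SE 1.09) for Gm5662 and -0.33 (SE 0.948) for Gm4027, with the other 3 genes between. No gene passed there (edgeR adjusted p between 0.958 and 0.995, 0% of all genes called), none had an unadjusted p under 0.05, and the groups overlapped for all 5, while 9.56% of all genes were higher and 11% lower without overlap. Without WT replicate 1, the Hetero KO over WT value of Gm5662 was 1.69. The comparisons of Homo KO and of Hetero KO with WT share the WT libraries.

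Other 2-cell transcripts varied alongside the 5 genes across the 4-cell libraries. The 2-cell markers summed to 295, 304 and 405 CPM in Homo KO, 148, 112 and 65.3 CPM in Hetero KO, and 254 and 18.3 CPM in WT embryos. WT replicate 2, the lowest 4-cell library for the summed 2-cell genes of the cluster, was also the lowest for these markers, and no Homo KO library overlapped a Hetero KO library in either sum. The part of this shared pattern in the difference between Homo KO and Hetero KO was not tested.

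**Figure D3:**
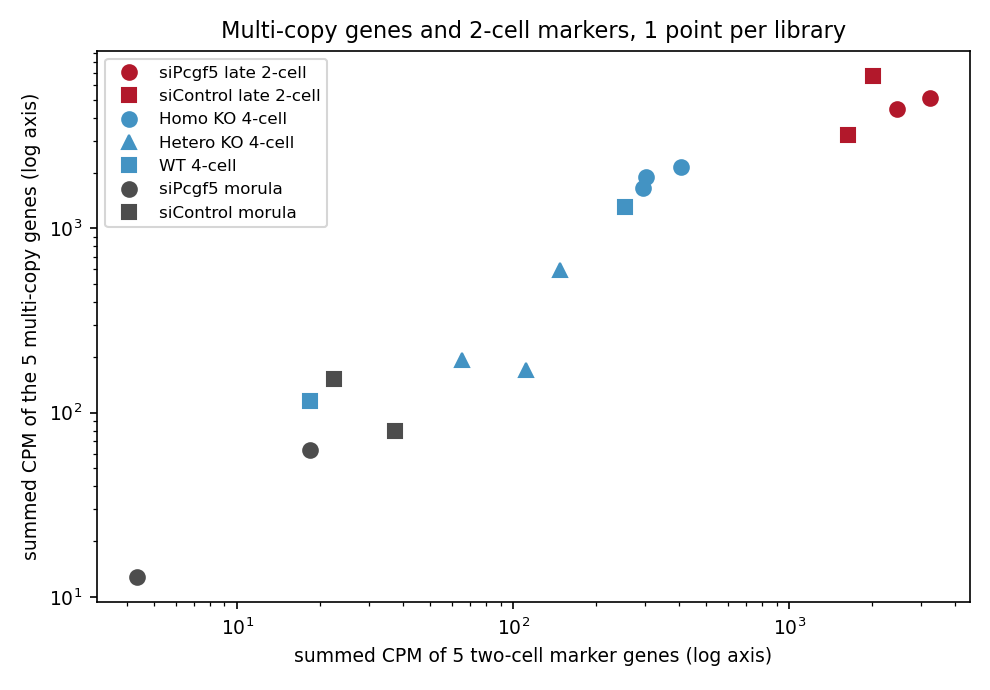
Summed CPM of the 5 predicted genes against summed CPM of 5 markers of the 2-cell embryo, both on log axes, 1 point per library, with colour for stage and shape for group. WT replicate 2 lies beside the morula libraries, at 116 CPM of the predicted genes and 18.3 CPM of the markers, and WT replicate 1 lies close to the Homo KO libraries.

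Single genes from the lists were read beside these sums. Zscan4c averaged 35.5 ± 26.6 CPM in Homo KO and 7.44 ± 0.672 CPM in Hetero KO embryos (SD, n = 3 each). Obox3, a homeobox gene of the Obox family active in early embryos, averaged 185 ± 31.6 CPM in Homo KO and 46.7 ± 13.3 CPM in Hetero KO embryos (SD, n = 3 each), with a log2 fold change of 1.99 (SE 0.650, edgeR adjusted p = 0.518). Obox6 of the same family was at 2252 ± 382 CPM in Homo KO and 2161 ± 515 CPM in Hetero KO embryos (SD, n = 3 each). Of 26 other 2-cell genes tested, 21 had a positive log2 fold change of Homo KO over Hetero KO, with a median of 1.10, and none passed.

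Markers of other cells were checked in the same 4-cell libraries. The 5 oocyte markers (Zp3, Gdf9, Bmp15, Oog1 and Omt2b) summed to 860 to 1710 CPM in Homo KO, 655 to 2989 CPM in Hetero KO and 971 to 988 CPM in WT embryos, with Hetero KO replicate 1 the highest. The 6 cumulus and granulosa markers summed to 4.85 to 13.8 CPM in Homo KO, 0.547 to 1.67 CPM in Hetero KO and 1.77 to 1.96 CPM in WT embryos. Has2 and Amh, 2 of these markers, were at 0 in all 8 libraries, and Tnfaip6 averaged 7.08 ± 5.58 CPM in Homo KO and 0.844 ± 0.464 CPM in Hetero KO embryos (SD, n = 3 each). Blood markers summed to 61.7 to 83.3 CPM in Homo KO, 18.8 to 47.6 CPM in Hetero KO and 20.2 to 48.3 CPM in WT embryos, with Hba-a2 detected while Hbb-bs, Hbb-bt and Ptprc were at 0. In the siRNA libraries the cumulus and granulosa sums were 18.9 to 37.5 CPM at the late 2-cell stage and 0 to 0.137 CPM in morulae. The blood sums were 248 to 354 CPM at the late 2-cell stage and 16.5 to 39.0 CPM in morulae. Both sums thus also varied with stage. The part of these markers in the difference was not tested.

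Within the cluster, values of the neighbouring genes ranged widely. BB287469 averaged 340 ± 78.7 CPM in Homo KO and 55.8 ± 54.5 CPM in Hetero KO embryos (SD, n = 3 each), a log2 fold change of 2.62 (SE 1.01). Gm5039, a transcribed pseudogene, had a log2 fold change of 3.35 (SE 0.993) and Gm21319 one of 1.82 (SE 0.583). Of the 10 neighbours tested from Snw1 to Adck1, these 3 were higher in Homo KO without overlap and none passed with edgeR. Their expected counts were not whole in 14 to 16 libraries, so they may share reads with the 5 genes.

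The other 7 overlapped between the groups, and their values ran from -2.43 to 0.99. Gm2042, which lies between Gm2022 and Gm5662, averaged 216 ± 59.5 CPM in Homo KO and 205 ± 142 CPM in Hetero KO embryos (SD, n = 3 each), a log2 fold change of 0.09 (SE 0.480). Gm1995 had a log2 fold change of 0.23 (SE 0.308), Gm7104 one of 0.01 (SE 0.528), and Snw1 one of 0.10 (SE 0.200). Gm16381 had one of 0.63 (SE 0.299) and Adck1 one of 0.99 (SE 0.674). Oog1, also among the oocyte markers, averaged 6.56 ± 10.6 CPM in Homo KO and 35.7 ± 34.8 CPM in Hetero KO embryos (SD, n = 3 each), a log2 fold change of -2.43 (SE 2.45). Whether these values differ from those of the 5 genes was not tested. Gm2042 nevertheless fell with stage like the 5 genes, to 2.92 ± 3.11 CPM in siControl morulae, against 1448 ± 509 CPM in siControl late 2-cell embryos (SD, n = 2 each, log2 fold change -8.94, edgeR adjusted p = 2.94e-05).

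**Figure D4:**
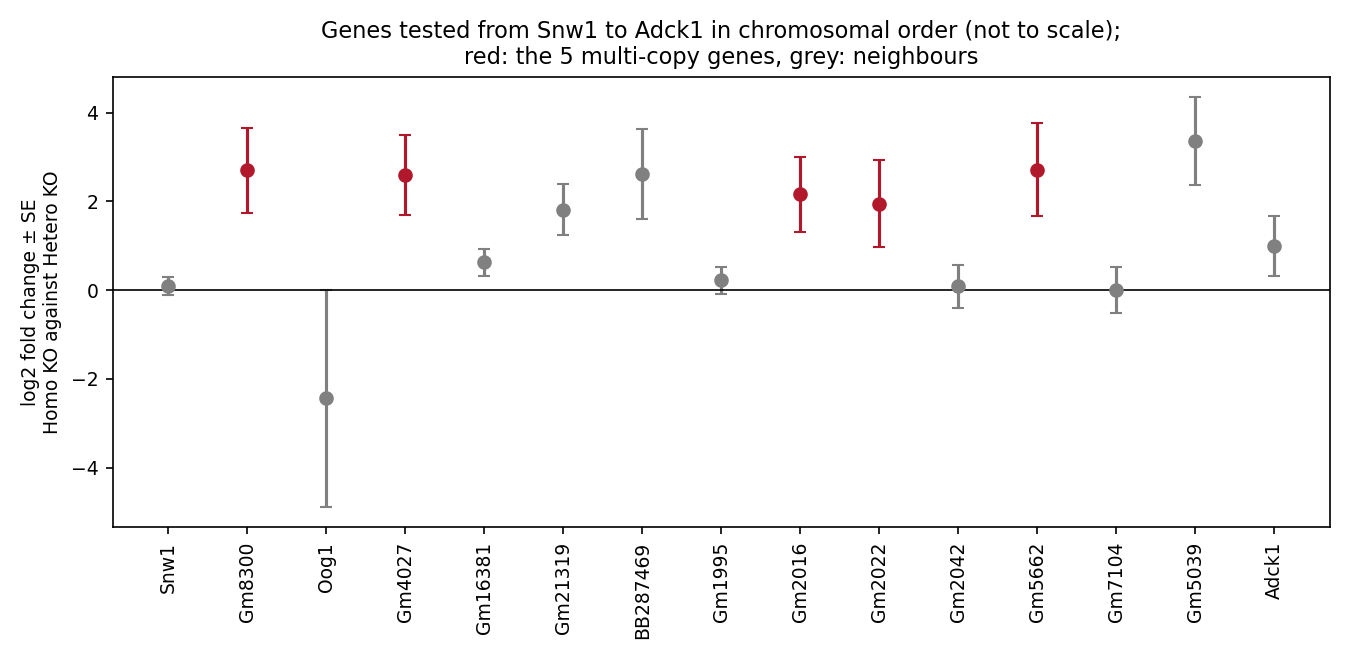
Log2 fold change of Homo KO over Hetero KO with its standard error (edgeR) for the genes tested from Snw1 to Adck1, in chromosomal order and not to scale. The 5 predicted genes (red) lie between 1.95 and 2.72, and the neighbours (grey) lie between -2.43 for Oog1 and 3.35 for Gm5039.

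The shares of the copies were not constant. Gm4027 took 26.0% to 28.4% of the summed TPM in the 3 Homo KO libraries and 11.7% to 16.9% in the 4 late 2-cell libraries. Gm8300 likewise took 12.1% to 15.0% in Homo KO and 5.80% to 9.15% in late 2-cell embryos. Gm2016 took 11.9% to 14.2% in Homo KO and 19.3% to 23.6% in late 2-cell embryos. The Gm4027 share ran from 15.0% to 29.3% in Hetero KO embryos and from 10.6% to 28.0% in the 4 morula libraries. It was 14.9% and 27.4% in WT embryos, so all these spans overlapped both. Homo KO and late 2-cell embryos differ also in stage, siRNA treatment and experiment, which cannot be told apart. The shares rest on how shared reads were divided.

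**Figure D5:**
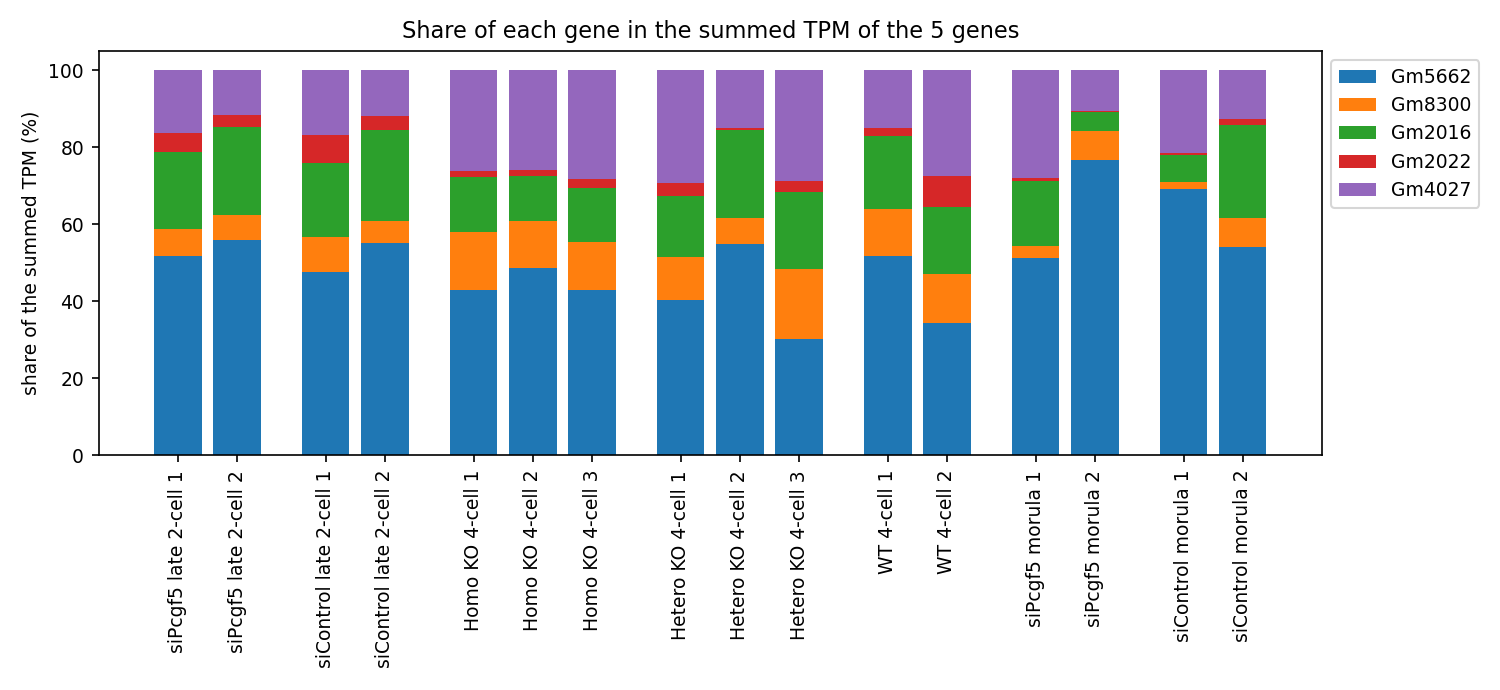
Share of each gene in the summed TPM of the 5 genes, 1 stacked bar per library, groups in order of stage. Gm5662 takes between 30.2% and 76.6% in each library, and the Gm4027 share is larger in the 3 Homo KO libraries (26.0% to 28.4%) than in the 4 late 2-cell libraries (11.7% to 16.9%). The Gm4027 share is 14.9% and 27.4% in WT and 10.6% to 28.0% in morula libraries.

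The 5 genes followed each other across libraries. Over the 16 libraries, Pearson's r of log2 CPM between pairs of them was 0.932 to 0.970. Within the 8 4-cell libraries r ran from 0.745 (Gm5662 with Gm2022) to 0.990 (Gm5662 with Gm2016). These points share library and depth and may share reads among copies, and stage sets most of the spread.

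Among 12482 other genes with a mean of at least 1 CPM, BB287469 was the most like the mean of the 5 genes over the 16 libraries (r = 0.976). B020031M17Rik (r = 0.972), Gm4971 (r = 0.961), BC147527 (r = 0.961) and 9130209A04Rik (r = 0.957) followed. The last of them reached at most 5.40 CPM in any library and was at 0 in both siPcgf5 morula libraries. With a prior count of 0.5 in place of 2, 9130209A04Rik ranked 10. The expected count of BB287469 was not a whole number in all 16 libraries, so BB287469 may share reads with the 5 genes. B020031M17Rik averaged 85.2 ± 34.9 CPM in Homo KO and 19.5 ± 9.36 CPM in Hetero KO embryos (SD, n = 3 each). Its ranges (62.3 to 125 and 10.5 to 29.2 CPM) did not overlap, as for 8.11% of all genes in this direction. It was picked for likeness over libraries that include these, so its separation is not a separate observation. BB287469 was first also over the 4-cell libraries alone (r = 0.995, n = 8), where none of the other 4 was among the top 5. Over the siRNA libraries alone the most alike was Tbc1d12 (r = 0.998, n = 8), and none of the 5 named genes was among the top 5.

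The stage course of the 5 genes was set beside other gene lists, in a comparison that called 24.9% of all genes higher and 28.1% lower. Of 26 other 2-cell genes tested, 21 fell and 1 rose in siControl morulae against siControl late 2-cell embryos, with a median log2 fold change of -4.25. Of 29 genes of the translation initiation machinery, 21 rose and 1 fell, with a median of 1.91. Eif2s2, a subunit of the initiation factor that brings the first transfer RNA, rose to 10807 ± 802 CPM in siControl morulae, against 1952 ± 918 CPM in siControl late 2-cell embryos (SD, n = 2 each, edgeR adjusted p = 7.82e-05). Of 29 regulators of 2-cell genes, 8 rose, a share near that of all genes, and 12 fell. Obox3 fell to 1.70 ± 2.19 CPM in siControl morulae, against 1787 ± 975 CPM in siControl late 2-cell embryos (SD, n = 2 each, log2 fold change -10.03, SE 1.26, edgeR adjusted p = 0.000430).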

How the data were processed

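Per the file headers, each deposited table gives RSEM gene values of 1 library, with an expected count that the authors left unnormalised and a TPM (length-corrected abundance), which the authors' deposited files scale within a library. Per the submitters' processing notes, STAR 2.7.10 and RSEM 1.3.3 were used, with Bowtie2 2.4.5, deepTools and the build mm10 also named, and no role or order stated; filters on reads and how multi-mapping reads were set are not given in the sources used here. The 4 H2AK119ub1 chromatin libraries were not analysed here.

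Groups were taken from the sample titles. Expected counts were rounded, genes kept by filterByExpr (minimum count 10), normalised by TMM and compared in edgeR 4.0.16 under R 4.3.3 (quasi-likelihood F test, robust, two-sided, 1 coefficient per group, Benjamini-Hochberg threshold 0.05 over all genes). The 8 siRNA libraries (16980 genes), the 8 4-cell libraries (13766) and all 16 for comparisons across experiments (16669) were fitted apart, with coefficients of variation of 0.460, 0.517 and 0.514. CPM use 1 TMM scaling over the 16 libraries, and log2 CPM a prior count of 2. Promoter windows were aligned end to end with free end gaps in Biopython 1.88. Alternatives were DESeq2 1.42.0, its size factors in edgeR, no filter, limma 3.58.1 on log2(TPM + 1), only the groups compared, a replicate block and each library left out. The scripts were tested on simulated data.

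Of the 24411 symbols, 23194 matched RefSeq of GRCm38.p6. Replicates differed by more than counting noise (chi-square per degree of freedom 40.6 to 163), so each library counted once. Total counts were 14310634 to 55620137 per library. Genes named besides the 5 members are Pcgf5, the 5 genes most alike by correlation, up to 4 genes per list with the highest siControl late 2-cell CPM, and the neighbours from Snw1 to Adck1. The neighbours were added after their values were seen. Members and lists were chosen with earlier results of these data known.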

Additional observations from a re-analysis of the deposited data

How the results depend on the processing

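Over all alternatives run, the 5 genes kept a lower value in morulae than in late 2-cell embryos and a higher value in Homo KO than in Hetero KO embryos (lowest log2 fold change 1.40, for Gm2022). For siControl morula against siControl late 2-cell, 3 of the 5 genes passed in each fit without 1 of the 4 libraries, where fewer samples were fitted. For WT 4-cell against siControl late 2-cell, where none passed, DESeq2 called 4 lower (3617 of all 15666 genes) and limma 5 (5229 of 16669). Its size factors in edgeR called 1 lower (2961 of 16669), and a fit of only the groups compared 2 (2352 of 14687). For siControl morula against WT 4-cell, where 1 passed, DESeq2 called 4 lower (3155 of all 15343 genes) and limma 3 (3591 of 16669). A fit of only the groups compared called 3 lower (2525 of 13671), and no filter 0 (2314 of 21049). For siPcgf5 against siControl in morulae and for the difference between the knockdown effects, fits without 1 library called 0 to 1 lower, in both the gene being Gm4027 without siPcgf5 morula replicate 1. The cause was not tested. DESeq2 size factors moved the median of all genes from late 2-cell to morula to -0.51, against -0.34 with TMM.

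Directions turned for values near 0 or resting on 1 library. With 1 library left out, siPcgf5 against siControl at the late 2-cell stage ran from -0.47 to 0.73 for Gm5662, -0.23 to 0.10 for Gm8300, -0.57 to 0.70 for Gm2016, -0.21 to 0.26 for Gm4027 and -0.45 to 0.57 for the sum of the 5. With limma Gm5662 was at 0.0049. In morulae it ran from -5.04 to 0.062 for Gm2016 and -3.84 to 0.014 for Gm4027. The difference between the knockdown effects ran from -4.95 to 0.16 for Gm2016, -4.64 to 0.057 for Gm2022 and -3.84 to 0.018 for Gm4027. Hetero KO against WT ran from -2.30 to 1.69 for Gm5662, -1.97 to 1.36 for Gm8300, -2.03 to 1.48 for Gm2016, -1.41 to 1.43 for Gm4027 and -2.05 to 1.45 for the sum. For siControl morula against WT 4-cell it ran from -3.28 to 0.73 for Gm5662 and from -3.48 to 0.045 for the sum. The cause was not tested beyond the library left out. With 1 library of a pair left out, the lone one is assumed to vary like the other groups.

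Replicate numbers did not pair the samples: the deviations of same-numbered libraries correlated at -0.0386 in late 2-cell embryos, 0.00264 in morulae -0.101 to 0.0418 between Homo KO and Hetero KO, and -0.0676 to 0.123 between either of these and WT (highest for Hetero KO 1 with WT 1). With a replicate block, 4 of 5 genes (not Gm2016) passed for siControl morula against siControl late 2-cell, 0 passed for siControl morula against WT 4-cell, and Gm5662 was at 0.0090 for siPcgf5 against siControl at the late 2-cell stage. Other counts of calls were as without the block. Low counts limit Gm2022 in morulae, with 2.11 expected counts in siPcgf5 replicate 2, although that library was the deepest.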

Other observations

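Lists not described with the comparisons are given here as values. Of 33 initiation factor 1A and predicted genes of such clusters, 7 were in the tables, and 4 of these fell and 3 rose in siControl morulae against siControl late 2-cell embryos, where 28.1% of all genes were called lower and 24.9% higher. Among those that fell, Gm4850 stood at 6.89 ± 2.00 CPM in siControl morulae, against 695 ± 319 CPM in siControl late 2-cell embryos (SD, n = 2 each, edgeR adjusted p = 0.0154). Gm5039 stood at 0.122 ± 0.172 CPM, against 212 ± 20.4 CPM (SD, n = 2 each, edgeR adjusted p = 0.000203). All 5 morula markers rose in that comparison, Klf5 with a log2 fold change of 3.70 (SE 0.257, edgeR adjusted p = 2.14e-06). Of the 5 sperm markers 4 were tested and 2 fell, and Tnp2 was at 0 in every library but siControl late 2-cell replicate 1.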
